A study of Mus musculus with 6 samples.

Results

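The heat shock protein and DNAJ genes were described in eWAT, the epididymal white fat of the mouse, a visceral depot attached to the epididymis. Members were the protein-coding genes of the GENCODE M21 annotation whose symbol begins with Hspa, Hspb, Hspd, Hspe, Hsph, Dnaja, Dnajb or Dnajc followed by a digit, or with Hsp90. The rule used names only and gave 72 of the 54356 genes in the files (21815 of them protein-coding). Poly(A) RNA had been sequenced from 6 male wild-type C57BL/6N mice aged 20 weeks, 3 labelled cold (cold 7, cold 12 and cold 16) and 3 labelled ctrl (ctrl 5, ctrl 6 and ctrl 10). One treatment text is attached to all 6 libraries and gives 24 h of single housing at 4 °C, so the temperature and caging of the ctrl mice are not given apart from their label and the general housing text. The numbers are mouse identifiers, so each library is a separate animal, and the tissue was taken whole.

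Chaperones keep newly made and damaged proteins folded. HSP70 proteins bind unfolded stretches and release them when ADP is replaced by ATP, J-domain proteins (DNAJA, DNAJB and DNAJC) bring clients and start ATP hydrolysis, and HSP110 proteins exchange the nucleotide. HSP90 matures signalling proteins such as steroid receptors, HSP60 with HSP10 forms the folding chamber of mitochondria, and small HSPs hold unfolded proteins without ATP. Many of these genes are induced through heat shock factor 1 (HSF1) when proteins unfold in the cytosol, and those of the endoplasmic reticulum (ER) through the unfolded protein response.

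Libraries held 19735167 to 28608052 estimated counts. Adipocyte markers (6 genes) were high in all 6 and did not overlap between groups, summing to 20874 to 23881 CPM (counts scaled to library size) in ctrl and 24976 to 26661 CPM in cold, while their median log2 fold change was -0.05 and 1 of 6, Lep, was called higher in cold. Fabp4 was the largest part of that sum, at 10694 to 12570 CPM in ctrl and 14022.5 to 16394 CPM in cold. Of the 6 genes, 2 (Lep and Fabp4) were higher in cold without overlap and 1 (Plin1) was lower. The class markers Hspa8, Hspa5 and Hspd1 were abundant in all 6 libraries. Epithelial markers (6 genes) summed to 7.51 to 32.3 CPM in ctrl and 92.2 to 194.1 CPM in cold, and motile cilium markers (16 genes) to 10.4 to 38.7 and 80.2 to 234.0 CPM. Male germ cell markers (7 genes) summed to 0.165 to 3.58 CPM in ctrl, 48.3 in cold 7, 40.4 in cold 12 and 3.77 in cold 16. The part of these marker sums in the results below was not tested, and they are given beside the members they move with. In whole tissue, fewer cells of a type and less RNA per cell cannot be told apart.

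Levels were compared between genes as TPM, which is scaled for transcript length. The constitutive cytosolic HSP70 gene Hspa8 was the most abundant member, at 581 ± 18.0 TPM in ctrl and 714 ± 86.5 TPM in cold (SD, n = 3 each), and held 14.7% of the summed TPM of all 72 members. Next came the constitutive HSP90 gene Hsp90ab1 (431 ± 25.5 TPM in ctrl). The ER HSP70 gene Hspa5 (255 ± 30.4 TPM) and the small HSP gene Hspb1 (257 ± 30.8 TPM) did not differ beyond their spread in ctrl. The mitochondrial HSP70 gene Hspa9 (206 ± 13.1 TPM) and the ER HSP90 gene Hsp90b1 (176 ± 20.8 TPM) followed, and these 6 genes held 45.4% of the total. The inducible HSP70 genes lay far lower, Hspa1b at 13.2 ± 2.42 TPM and Hspa1a at 5.33 ± 0.783 TPM in ctrl. By class, HSP70 genes held 30.3% of member TPM, DNAJC genes 17.9%, HSP90 genes 16.9%, small HSP genes 10.1%, DNAJA genes 7.95%, DNAJB genes 7.61%, HSP60 with HSP10 7.03% and HSP110 genes 2.22%.

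**Figure D1:**
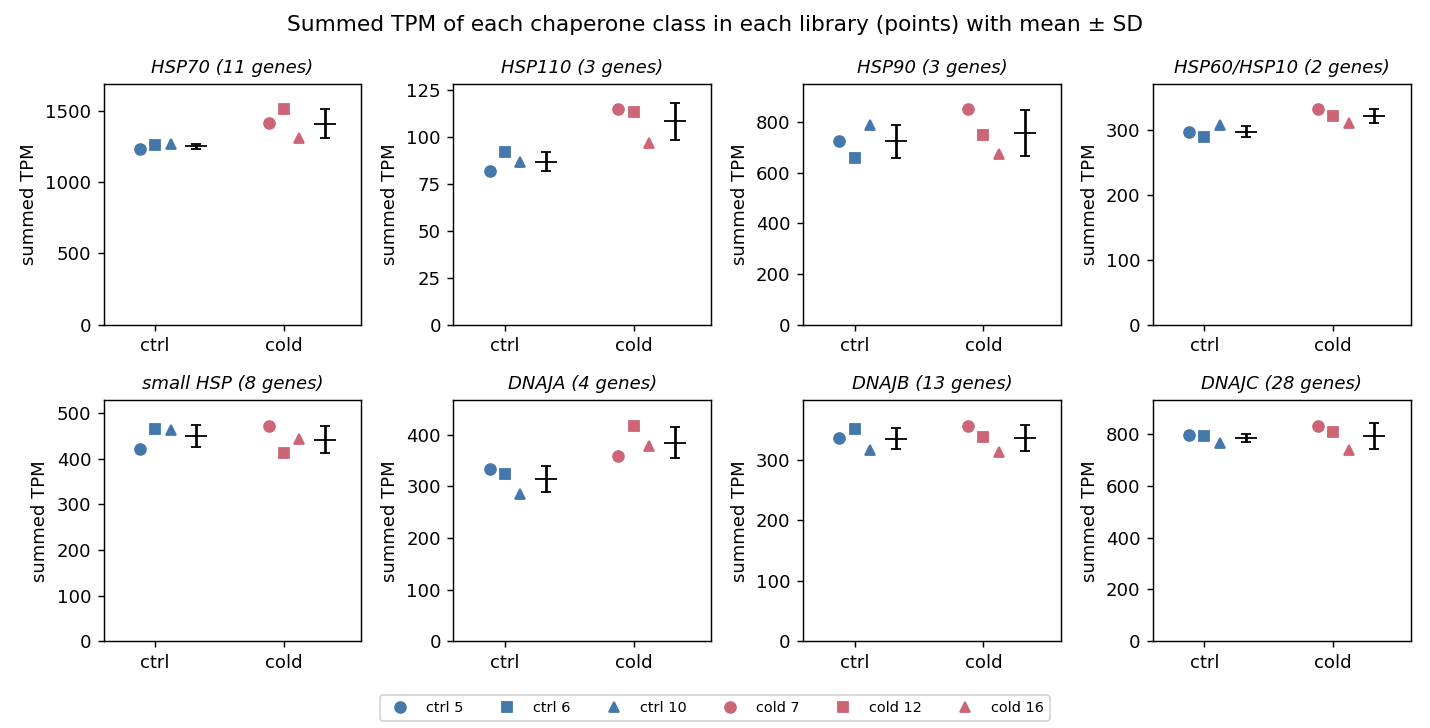
Summed TPM of each chaperone class (vertical axes, starting at 0) in the 3 ctrl and 3 cold libraries (points, 1 symbol per library), with the mean ± SD of each group as a bar. HSP70, HSP110, HSP60/HSP10 and DNAJA sums did not overlap between groups, while HSP90, small HSP, DNAJB and DNAJC sums did.

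The summed level of the 72 members was 4216, 4230.1 and 4279 TPM in ctrl 5, ctrl 6 and ctrl 10, against 4725, 4668 and 4262 TPM in cold 7, cold 12 and cold 16. The controls lay close together, and cold 16 fell within their range. The HSP70 sum was 1251 ± 19.1 TPM in ctrl and 1411 ± 99.1 TPM in cold, with no overlap. Without Hspa8 it was 670.4 ± 36.2 and 698 ± 71.4 TPM and overlapped. Without both Hspa8 and Hspa5 the order turned, with 408 to 419 TPM in ctrl and 364 to 400.2 TPM in cold. The DNAJA sum was 315 ± 25.6 and 385 ± 29.6 TPM, and without Dnaja4 it was 298 ± 20.5 and 319 ± 10.7 TPM and overlapped (SD, n = 3 each). Both sums thus overlapped once their 1 named gene was left out.

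The comparison of cold with ctrl asked which members differed between the groups. Of the 72 members 67 passed the low-count filter, and none was called in either direction by edgeR's quasi-likelihood test at an adjusted p under 0.05, against 2.89% of all genes tested (2.32% higher and 0.566% lower in cold). At an unadjusted p under 0.05 there were 14 members (12 higher and 2 lower in cold), against 17.6% of all genes tested (10.6% higher and 6.99% lower), and DESeq2 called 4 (Hspa8, Hsp90aa1, Hsph1 and Dnaja4, all higher) against 7.51%. Cold and ctrl did not overlap in 18 tested members with cold higher, or 26.9%, against 12.7% of all genes tested, and in 4 with cold lower, or 5.97%, against 11%. A log2 fold change above 0 was found for 43 of the 67, or 64.2%, against 47.6% of all genes tested. The median log2 fold change was 0.07 over the members and -0.01 over all genes tested, and 47 members lay within 0.2 of zero. The count of members called depended on the libraries and the filter. It was 1 with no low-count filter (background 2.65%), 1 without ctrl 5 (3.75%), 2 without cold 7 (5.91%) and 3 with neither ctrl 5 nor cold 7 (6.78%). It was 0 with RLE size factors (2.95%), with the transcript length offset (2.36%) and without cold 16 (0.0163%), and 0 without ctrl 6, ctrl 10 or cold 12, where no gene at all was called. Libraries of the control group varied by a median of 7.03% (coefficient of variation of CPM) in members and 10.8% in all genes tested.

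**Figure D2:**
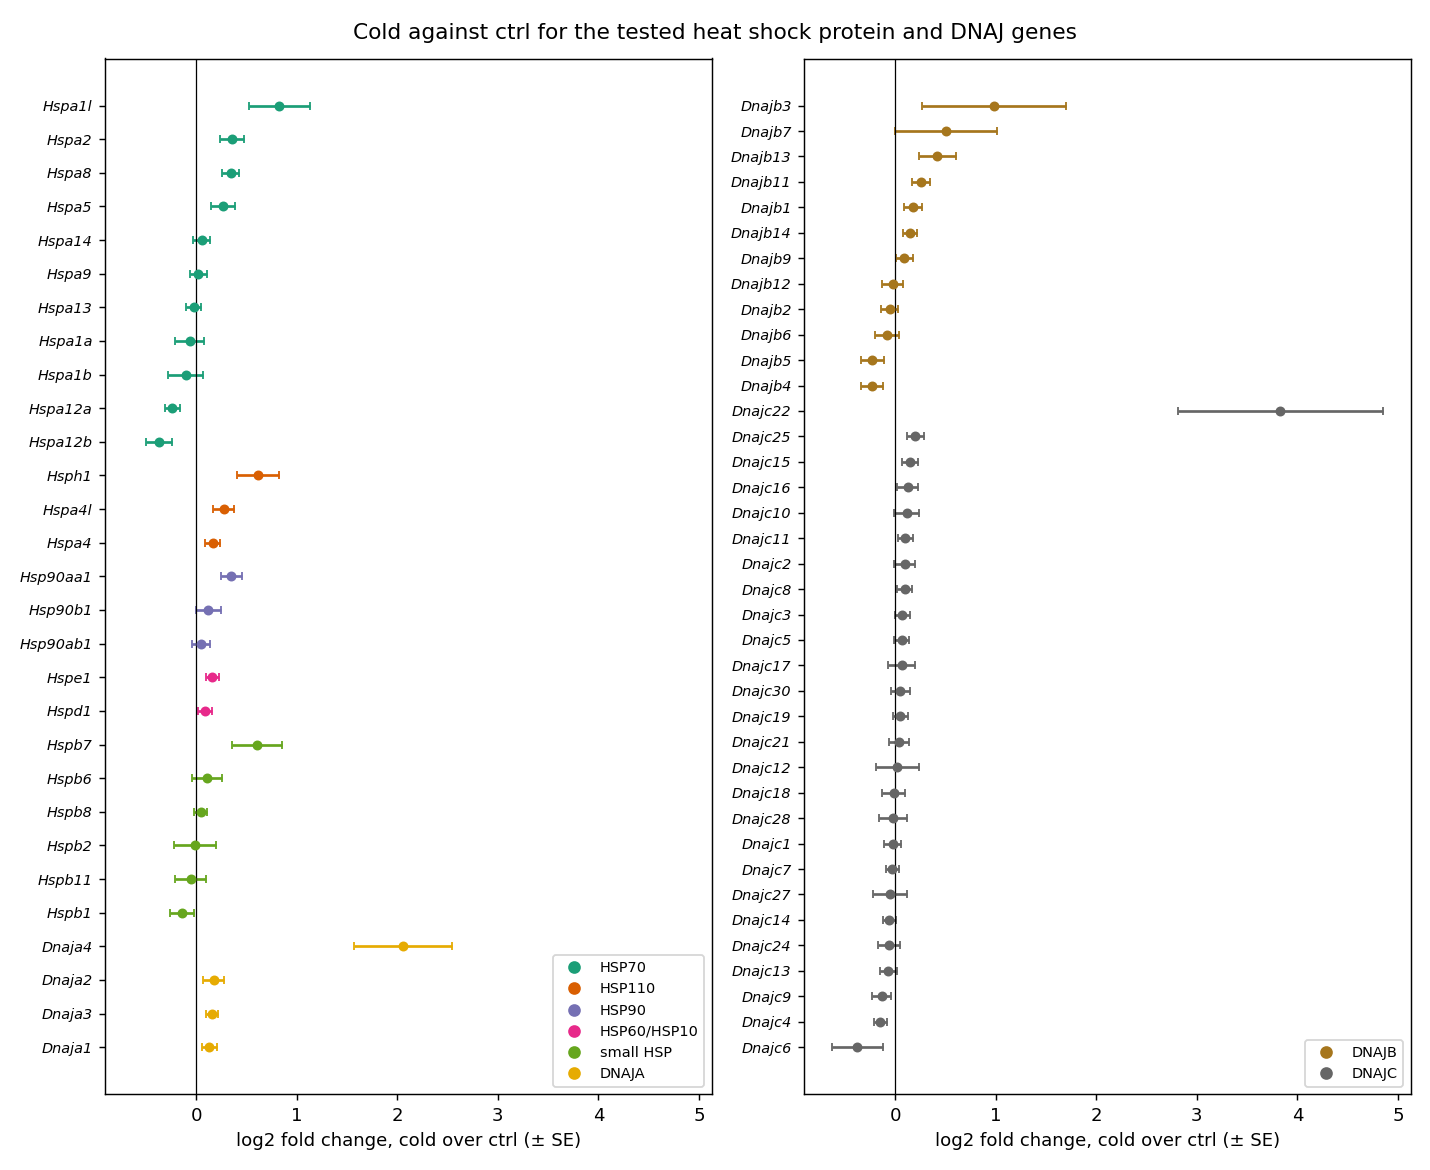
Log2 fold change of cold over ctrl (horizontal axis, bars show the SE) for each of the 67 tested members, coloured by chaperone class. Most lie within 0.2 of zero, and Dnajc22 (3.83) and Dnaja4 (2.06) stand to the right of all others.

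Among HSP70 genes, 0 of 11 passed and the median log2 fold change was 0.02. Hspa8 (chromosome 9, 40800984 to 40810087, GRCm38), whose product folds new proteins and uncoats clathrin vesicles, had 697, 724 and 711 CPM in ctrl and 845, 969.6 and 892 CPM in cold. Every cold library lay above every control, at 1.27-fold (log2 fold change 0.34, SE 0.08, adjusted p = 0.0698 by edgeR), the smallest adjusted p among the members. Hspa8 passed without cold 7 (0.39, adjusted p = 0.0424 by edgeR) and with DESeq2 (0.35, adjusted p = 0.000232). Cold 7 was its lowest cold library, so leaving it out widens the gap by the choice. Hspa8 did not pass with the transcript length offset (0.33, adjusted p = 0.124 by edgeR) or without cold 12 (0.31, adjusted p = 0.206 by edgeR). Hspa2, an HSP70 gene abundant in testis, had 27.3, 28.4 and 20.4 CPM in ctrl and 32.7, 32.6 and 32.1 CPM in cold (0.35, adjusted p = 0.172 by edgeR), and the cold libraries were nearly equal. Hspa1l, another HSP70 gene known from the testis, stood at 1.87 ± 0.686 and 3.31 ± 0.574 CPM (0.82, SE 0.30, adjusted p = 0.199 by edgeR; SD, n = 3 each).

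The atypical HSP70 relatives had values below 0. Hspa12b, known from endothelial cells, had 136, 151 and 189.8 CPM in ctrl and 110.4, 125 and 132 CPM in cold, or -0.37 on the log2 scale (SE 0.13, adjusted p = 0.181 by edgeR). Hspa12a had 124, 115 and 122 CPM in ctrl and 103, 109 and 94.1 CPM in cold, at -0.24 (SE 0.08, adjusted p = 0.149 by edgeR). In both genes the groups did not overlap, and these were the 2 lower members at an unadjusted p under 0.05. Beside them, all 5 endothelial markers had log2 fold changes below 0, with a median of -0.31, none past the threshold, and they summed to 1210 to 1265 CPM in ctrl and 970.4 to 1169 CPM in cold; their part in Hspa12b was not tested. The mitochondrial Hspa9 (0.02), the ribosome-linked Hspa14 (0.05) and the microsomal Hspa13 (-0.03) lay near zero.

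**Figure D3:**
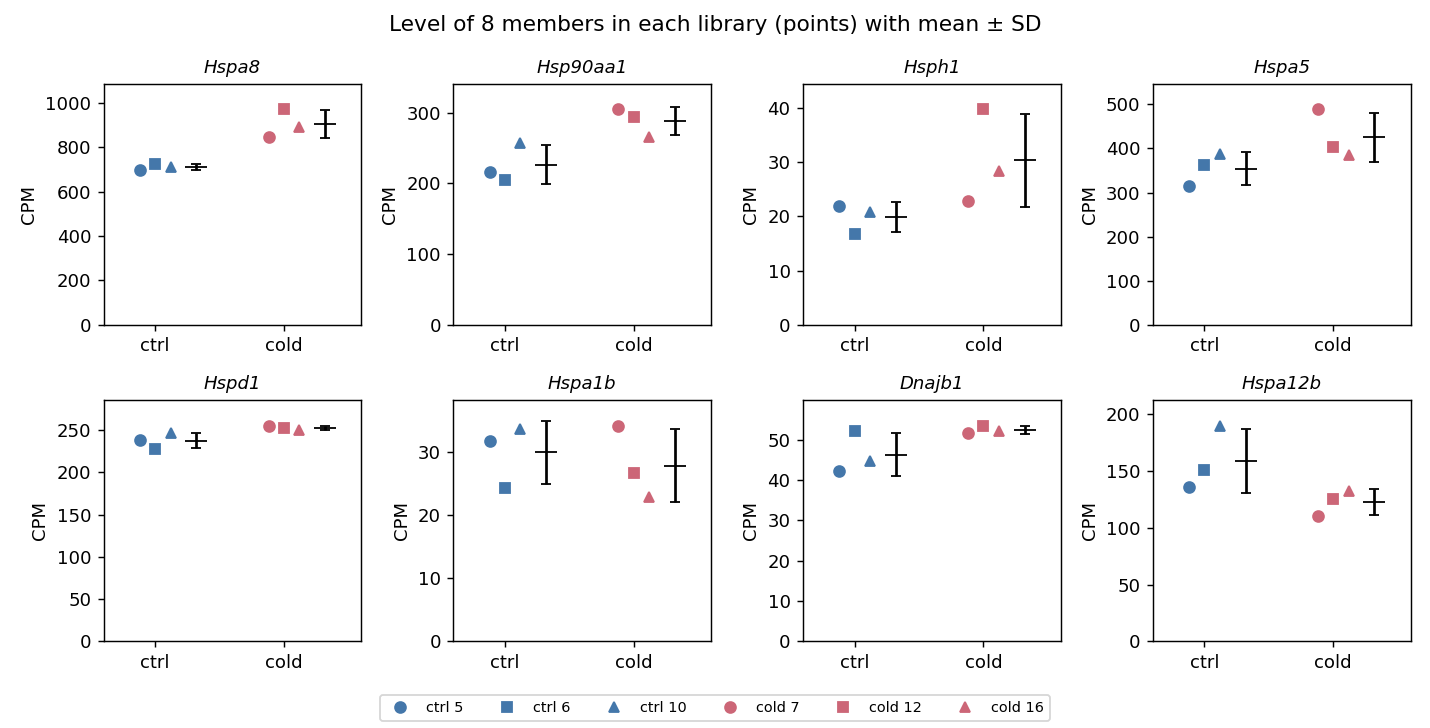
CPM of 8 members (vertical axes, starting at 0) in each ctrl and cold library (points, 1 symbol per library), with the mean ± SD of each group as a bar. Hspa8, Hsp90aa1, Hsph1 and Hspd1 are higher in every cold library than in every ctrl library, Hspa12b is lower in every cold library, and Hspa5, Hspa1b and Dnajb1 overlap.

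All 3 HSP110 genes, which act as nucleotide exchange factors for HSP70, had values above 0. Hsph1 (chromosome 5, 149614287 to 149636376) had 22.0, 16.7 and 20.9 CPM in ctrl and 22.9, 39.8 and 28.5 CPM in cold. Cold 7 lay just above ctrl 5, and cold 12 was the highest library. The log2 fold change was 0.62 (SE 0.21, adjusted p = 0.188 by edgeR), and the gene passed with DESeq2 (adjusted p = 0.0407) and in the 4 libraries other than ctrl 5 and cold 7 (0.87, adjusted p = 0.0482 by edgeR). Ctrl 5 was the highest control of Hsph1 and cold 7 its lowest cold library. Leaving out this pair thus widens the gap by the choice itself. Without cold 12 Hsph1 stood at 0.39 (adjusted p = 0.321 by edgeR). Its relatives Hspa4 and Hspa4l stood at 0.16 and 0.27 (adjusted p = 0.321 and 0.225 by edgeR). With the transcript length offset they stood at 0.28 and 0.69 (adjusted p = 0.296 and 0.0916 by edgeR), and without ctrl 5 and cold 7 Hspa4 stood at 0.09.

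The cytosol holds an inducible and a constitutive HSP90. Hsp90aa1 (chromosome 12, 110690605 to 110702728), the stress-inducible form, had 216, 205 and 257 CPM in ctrl and 305, 294 and 266 CPM in cold, or 0.35 on the log2 scale (SE 0.10, adjusted p = 0.115 by edgeR). Its groups did not overlap, and it passed with DESeq2 (0.36, adjusted p = 0.0195) and with no low-count filter (0.35, adjusted p = 0.0492 by edgeR). With the transcript length offset it stood at 0.26 (adjusted p = 0.447 by edgeR). Hsp90ab1, the constitutive form, was at 0.05 with a 95% interval of -0.15 to 0.25. The TPM of Hsp90aa1 divided by that of Hsp90ab1 was 0.270 ± 0.0328 in ctrl and 0.314 ± 0.0195 in cold (SD, n = 3 each), and the groups overlapped.

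Of 11 members listed as heat-inducible HSF1 targets, 0 passed, with a median of 0.13. The list also holds Hspa8 and Hsp90ab1, named above as constitutive. Cold and ctrl did not overlap in 6 of them, all with cold higher (54.5%, against 12.7% of all genes tested). These were Hspa8, Hsp90aa1, Hsph1, Dnaja1, Hspd1 and Hspe1, so the share is not one of inducible genes alone. Of the heat-inducible members in the rule for named genes, Hsp90aa1 and Hsph1 were among the 6. Hspa1a, Hspa1b, Dnajb1 and Hspb1 were not, and overlapped between groups. Hspa1b (chromosome 17, 34956436 to 34959238) had 31.8, 24.3 and 33.7 CPM in ctrl and 34.1, 26.6 and 22.8 CPM in cold, and Hspa1a (chromosome 17, 34969190 to 34972156) had 13.6, 10.9 and 14.0 against 12.4, 13.7 and 10.8 CPM. Their 95% intervals for cold over ctrl, 0.699 to 1.24-fold for Hspa1b and 0.762 to 1.20-fold for Hspa1a, both end below 2-fold. The transcripts are near copies (63.8% of the 31-base words of Hspa1a also occur in Hspa1b), so the split between them is uncertain, and the CPM of both overlapped between groups. Dnajb1, the J-domain partner most strongly tied to the heat shock response, stood at 0.18 (SE 0.09, 95% interval -0.03 to 0.38). Hspb1 stood at -0.14. Beside these, all 7 immediate early genes listed (Fos, Fosb, Jun, Junb, Egr1, Atf3 and Ier2), which respond within minutes to handling, had values below 0, none past the threshold.

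HSF1 binds repeats of GAA and its reverse TTC spaced by a pair of bases. Promoter windows of RefSeq (GRCm38.p6, 250 bases before to 50 after a start) were found for 58 members. A heat shock element of 3 such units in alternation, starting with either unit (both strands), occurred in 4 of them (6.90%) and in 0.662% of all 27025 genes with windows. One of 2 units (GAANNTTC or TTCNNGAA, contained in every 3-unit match) occurred in 16 (27.6%) and in 17% of all genes. Shown are the 4 members with 3 or more units, the near-identical pair Hspa1a and Hspa1b, and Dnaja4, 1 stretch of 30 bases each, in the direction of the gene and with the element in capitals. Dnaja4 and Hsph1 each hold a further element of 2 units. The other 9 members with 2 units, not printed, are Dnaja1, Dnajb4, Dnajc10, Dnajc27, Dnajc5g, Hspb1, Hspb3, Hspb6 and Hspb8.
Hsph1, chr5:149636280-149636309, minus strand: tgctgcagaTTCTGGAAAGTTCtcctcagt
Hspe1, chr1:55088053-55088082, plus strand: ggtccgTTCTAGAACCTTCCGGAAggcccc
Hspd1, chr1:55088053-55088082, minus strand: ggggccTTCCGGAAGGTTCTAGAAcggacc
Dnajb6, chr5:29735843-29735872, plus strand: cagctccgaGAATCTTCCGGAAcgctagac
Hspa1a, chr17:34972242-34972271, minus strand: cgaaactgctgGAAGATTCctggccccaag
Hspa1b, chr17:34959324-34959353, minus strand: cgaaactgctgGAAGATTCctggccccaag
Dnaja4, chr9:54699458-54699487, plus strand: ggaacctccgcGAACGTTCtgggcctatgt

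Values differed among genes with an element. Hspd1 and Hspe1 share 1 element of 4 units, read from opposite strands of their common promoter. Hsph1 (0.62) and Dnajb6 (-0.08) each hold 3 units, and the difference between them was not tested. Hspa1a and Hspa1b hold the same 30 bases, and their windows agree at 296 of 300 positions. The median log2 fold change was 0.07 over 14 tested members with at least 2 units and 0.08 over 40 tested members with a window and no match. A match describes letters in this window only.

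The ER members (13 genes, all tested) had a median of 0.11, and 0 passed. Hspa5, also known as BiP, the HSP70 of the ER (chromosome 2, 34771970 to 34777547), had 314, 362 and 387 CPM in ctrl and 489, 403 and 385 CPM in cold. Cold 7 stood out, and cold 16 lay below ctrl 10, or 0.26 on the log2 scale (SE 0.12, adjusted p = 0.293 by edgeR). Hspa5 stood at 0.15 without cold 7 and at 0.08 without both ctrl 5 and cold 7 (adjusted p = 0.509 and 0.796 by edgeR). Its partner Dnajb11, an ER J-domain protein, had 57.6, 60.2 and 64.5 CPM in ctrl and 79.3, 65.1 and 73.1 CPM in cold with no overlap (0.25, SE 0.09, adjusted p = 0.18 by edgeR). Dnajc25 and the ER membrane protein gene Dnajb14 also did not overlap (0.20 and 0.15, adjusted p = 0.257 and 0.305 by edgeR). The ER HSP90 gene Hsp90b1 stood at 0.12, and at -0.03 without ctrl 5 and cold 7. The stress-responsive Dnajb9 (0.09), Dnajc3 (0.07) and the disulfide reductase gene Dnajc10 (0.11) overlapped.

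The ER stress element (CCAAT and CCACG with 9 bases of any kind between them, both strands), which ties genes to the unfolded protein response, was found in 3 of the 58 members with a window, all of them ER genes, and in 0.137% of all genes with windows. It is printed in capitals for these 3 of the 13 ER members. No match was found for the others, and members without a window were not searched.
Hspa5, chr2:34772019-34772048, plus strand: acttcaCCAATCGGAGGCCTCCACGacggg
Hsp90b1, chr10:86705633-86705662, minus strand: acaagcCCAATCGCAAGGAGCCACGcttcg
Dnajc3, chr14:118937821-118937850, plus strand: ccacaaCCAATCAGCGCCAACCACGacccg
Hsp90b1 held a second match on the other strand. The 3 genes stood at 0.26, 0.12 and 0.07 on the log2 scale, in all of which cold 7 was the highest library.

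One cold library was often the highest. Cold 7 had the highest CPM in 24 of the 67 tested members (35.8%), against 16.9% of all genes tested. This held for all 3 HSP90 genes, both of HSP60 and HSP10, 6 of 13 ER members and 4 of 11 HSP70 genes, and outside the members for 7 of 9 subunits of TRiC, the cytosolic chaperonin. Cold 7 also had the highest summed macrophage markers (799.6 CPM, against 665 to 760.0 in ctrl and 583 and 471 CPM in cold 12 and cold 16), the highest adipocyte sum (26661 CPM) and the highest germ cell sum (48.3 CPM). Of the 6 adipocyte markers only 1, Fabp4, was highest in cold 7, at 16394 CPM. The part of these sums in the high values of cold 7 was not tested. Without cold 7 the median over the members was 0.04.

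Mitochondrial members lay close together. Of 10 genes none passed, 8 had values above 0, and all 10 lay within 0.2 of zero, with a median of 0.07. The HSP10 gene Hspe1 (64.4, 67.0 and 65.6 CPM in ctrl against 74.7, 71.0 and 74.1 CPM in cold) and the HSP60 gene Hspd1 (238, 228 and 247 against 255, 252 and 249.9 CPM) did not overlap. They stood at 0.16 (SE 0.06, adjusted p = 0.238 by edgeR) and 0.09 (SE 0.07, adjusted p = 0.593 by edgeR). Dnaja3, which helps Hspa9 in the matrix, had 65.6, 65.5 and 66.3 CPM in ctrl, the tightest control group of all members, and 70.7, 76.2 and 73.1 CPM in cold (0.16, adjusted p = 0.251 by edgeR). Dnajc15 of the inner membrane also did not overlap (0.14). Dnajc19, of the protein import motor, was at 0.05 and Dnajc4 at -0.15, the latter lower in every cold library.

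Of 8 small HSP genes 6 were tested and 0 passed (median 0.02). Hspb7, a small HSP of heart and muscle, had 32.4, 60.2 and 33.0 CPM in ctrl and 62.5, 66.5 and 61.8 CPM in cold. Ctrl 6 stood just below the cold libraries (log2 fold change 0.60, SE 0.25, adjusted p = 0.284 by edgeR), and without it the value was 0.97 (adjusted p = 0.0589 by edgeR). As ctrl 6 was the highest control of Hspb7, leaving it out widens the gap by the choice. Hspb8, which works with the cochaperone Bag3, was level at 133 ± 4.29 and 137 ± 4.43 CPM (SD, n = 3 each). Hspb6, known to be phosphorylated downstream of cAMP in muscle, was at 0.11, Hspb2 at -0.01, and Hspb11, which serves intraflagellar transport in cilia, at -0.05. Smooth muscle markers (6 genes) overlapped between groups, at 362 to 509.9 CPM in ctrl and 427 to 495 CPM in cold, with ctrl 6 lowest. Striated muscle markers (6 genes) also overlapped, with ctrl 6 highest. They summed to 9.74, 21.1 and 14.6 CPM in ctrl 5, ctrl 6 and ctrl 10, and 11.6 to 17.7 CPM in cold. The part of either list in Hspb7 was not tested.

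Among the J-domain genes, 4 DNAJA, 12 of 13 DNAJB and 26 of 28 DNAJC genes were tested, and 0 passed. All 4 DNAJA genes had values above 0. Dnaja4 (chromosome 9, 54698873 to 54716315), a cytosolic J-domain gene known to respond to sterols, had 45.0, 27.6 and 20.3 CPM in ctrl and 64.7, 174.4 and 148 CPM in cold. Libraries also differed widely within each group. The log2 fold change was 2.06 (SE 0.49, adjusted p = 0.104 by edgeR). Dnaja4 passed with DESeq2 (adjusted p = 0.00116), without cold 7 (2.37, adjusted p = 0.0335 by edgeR) and without both ctrl 5 and cold 7 (2.76, adjusted p = 0.000182 by edgeR). Ctrl 5 was its highest control and cold 7 its lowest cold library. The passes without them thus follow in part from the libraries chosen and are no added support. The general partners of Hspa8, Dnaja1 and Dnaja2, stood at 0.13 and 0.17. The gene span of Dnaja4 overlaps that of Wdr61 by 1581 bases on the opposite strand. Spans run from gene start to end with introns, and whether the exons overlap was not examined. Whether the counting used strand is not given either, so whether reads of both genes were mixed is not known. The same holds for other members whose span overlaps a gene on the opposite strand. Among them are Dnaja3 (with Coro7), Dnajc7 (Cnp), Dnaja1 (Smu1), Dnajc19 (Fxr1) and Hspb2 (Cryab). Dnajb3 (Ugt1a genes) and Dnajb7 (Xpnpep3) are further cases, and this list is not complete.

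DNAJB genes lay on both sides of zero with a median of 0.12. Dnajb4 and Dnajb5, cytosolic relatives of Dnajb1, stood at -0.23 each (adjusted p = 0.331 and 0.352 by edgeR), and in Dnajb5 every cold library was below every control. The anti-aggregation gene Dnajb6 was at -0.08 and the ER membrane gene Dnajb12 at -0.03. Among DNAJC genes (median 0.04), 23 of 26 lay within 0.2 of zero. Dnajc7, a scaffold between HSP70 and HSP90, was at -0.03, Dnajc8, a splicing protein, at 0.09, and Dnajc5, the cysteine string protein of secretory vesicles, at 0.07. The auxilin gene Dnajc6 had the lowest value of all members, -0.38 (SE 0.25), with ctrl 6 at 10.9 CPM and the other 5 libraries between 4.94 and 6.72 CPM. Without ctrl 6 it stood at -0.04 (adjusted p = 0.944 by edgeR), so that its rank rests on that library. Dnajc22 (chromosome 15, 99093170 to 99104737), a gene for a membrane J-domain protein, had the highest, 3.83 (SE 1.02, adjusted p = 0.118 by edgeR), from 23, 1 and 0 counts in ctrl to 64, 164 and 169 in cold. It passed without ctrl 5 (7.45, adjusted p = 0.0153 by edgeR) and without both ctrl 5 and cold 7 (7.74, adjusted p = 0.000189 by edgeR), where the remaining controls held 1 count in all, so that these sizes depend on the fit. Ctrl 5 was also its highest control and cold 7 its lowest cold library, so leaving them out widens the gap by the choice.

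The 2 members with the largest values followed the libraries in the order of the motile cilium markers (cold 12, cold 16, cold 7, ctrl 5, ctrl 6, ctrl 10, from high to low). Dnaja4 and Dnajc22 had exactly that order, 2.99% of the members tested against 2.005% of all genes tested. Hsph1 had the order of the epithelial markers, in which ctrl 6 and ctrl 10 change places, 1.49% of the members tested against 1.53% of all genes tested. Both shares are near the background, so the orders describe these genes and are no result about the members. Dnajb13, a radial spoke protein of motile cilia, did not share it. It had 3.72, 5.10 and 5.24 CPM in ctrl and 6.74, 6.13 and 5.87 CPM in cold, and stood at 0.42 (0.22 without ctrl 5 and cold 7), while the cilium list had a median of 3.25 and its lowest member, Rsph9, was at 0.25. Of its TPM 57.1% belonged to Dnajb13-203, a transcript of the nonsense-mediated decay type, and the gene overlaps the 3' end of Ucp2 by 305 bases on the opposite strand. Hspb11 was also level (5.20, 5.32 and 5.03 CPM in ctrl, 5.08, 4.68 and 5.24 CPM in cold). The part of epithelial or ciliated cells in Dnaja4, Dnajc22 and Hsph1 was not tested, nor was the source of these markers.

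A few low members known from male germ cells were put together after their values were seen. Hspb9 had 8, 8 and 4 counts in ctrl and 68, 48 and 11 in cold 7, cold 12 and cold 16. Dnajb8 had 0, 2 and 0 counts in ctrl and 39, 32 and 4 in cold, Dnajc5b 1, 1 and 1 against 24, 9 and 2, and Dnajc5g 0, 0 and 0 against 12, 2 and 1. These 4 did not pass the low-count filter and were not tested, nor was Hspb3, with 1 count in all. In each of the 4, cold 7 was highest, cold 12 next and cold 16 near the controls, as in the summed germ cell markers. Hspb9 and Dnajc5b did not have the full order of that sum over all 6 libraries. Dnajb8 and Dnajc5g have controls tied at 0, so their full order is not defined. Hspa1l and Hspa2, also known from the testis, did not show this: Hspa1l was highest in cold 12 (3.59, 3.70 and 2.65 CPM in cold 7, cold 12 and cold 16), and Hspa2 was level across cold. Dnajb3, which was tested, had 45, 38 and 18 counts in ctrl and 124, 74 and 18 in cold (log2 fold change 0.98, SE 0.72, adjusted p = 0.565 by edgeR). Dnajb3 too was highest in cold 7 and next in cold 12, with cold 16 below the controls in CPM. Dnajb7 stood at 0.50 (SE 0.51), with ctrl 10 above cold 12. The part of germ cell RNA was not tested.

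**Figure D4:**
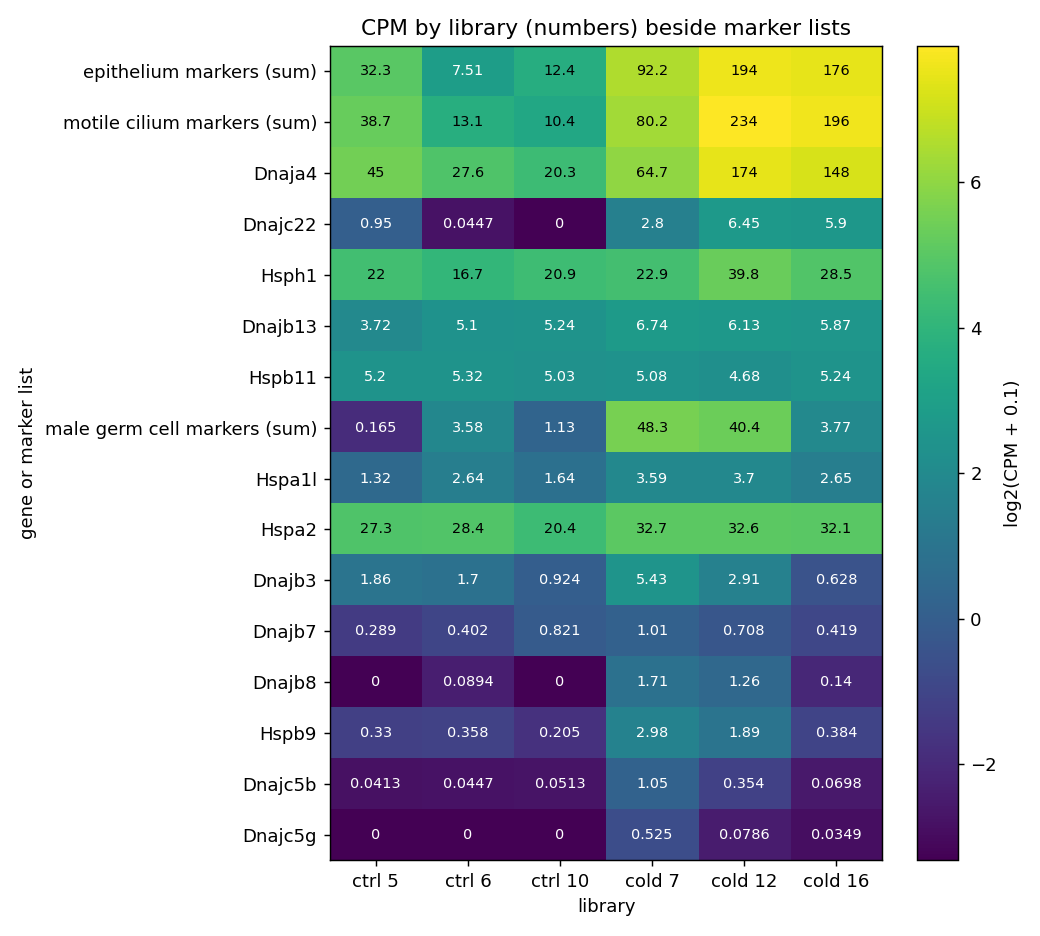
CPM in each of the 6 libraries (numbers in cells, colour on a log2 scale with 0.1 added) for 13 members and for the summed epithelial, motile cilium and male germ cell markers. Dnaja4 and Dnajc22 are highest in cold 12 and cold 16, as the epithelial and cilium sums are, while Dnajb8, Hspb9, Dnajc5b and Dnajc5g are highest in cold 7 and cold 12, as the germ cell sum is.

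Partner genes that the rule did not take held no call either. Of 4 tested heat shock factors and regulators 3 had values below 0: Hsf1, the master regulator, was at -0.25 (35.0, 32.3 and 41.2 CPM in ctrl, 27.9, 31.3 and 32.1 CPM in cold; adjusted p = 0.28 by edgeR), and Hsf4 at -0.57 (adjusted p = 0.176 by edgeR), both without overlap. Of 15 HSP70 partners, 10 had values above 0 with a median of 0.06, led by the HSP70 cochaperone Bag2 at 0.79 (4.21, 3.53 and 3.90 CPM against 4.60, 8.26 and 7.30 CPM; adjusted p = 0.118 by edgeR), while the HSF1 target Bag3 was at -0.11. Of 14 HSP90 partners, all lay within 0.2 of zero (median 0.05), with Chordc1 at 0.18 and Ptges3 at 0.15. TRiC (9 genes) had a median of 0.09. Cryab, the crystallin small HSP, was at 0.21.

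Salmon's split of reads among transcripts shows which RNA stood behind a gene's level. In 10 of the 67 tested members over 40% of TPM was given to transcripts of a type other than protein-coding, and in 43 under 10%. The highest share was in Dnajc15 (87.2%), then Dnajc7 (67.0%), Dnajc13 (65.4%) and Dnajb13 (64.3%). Hsph1 had 43.2%, most of it in the retained-intron transcript Hsph1-208 (33.5% of the gene's TPM). Hspa5 had 26.5% in Hspa5-204 of the nonsense-mediated decay type, and Hspa8 19.4% in Hspa8-203. Dnaja4 rested on 1 coding transcript with 92.3%, at 22.2, 13.1 and 9.30 TPM in ctrl and 29.6, 85.0 and 67.5 TPM in cold. Named pseudogene copies took 2.63% of the summed reads of Hspd1 and at most 0.1% of those of Hspe1, Hspa9, Dnaja1 and Dnajc19.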

How the data were processed

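The submitters' processing notes name bcl2fastq, cutadapt, Salmon and GRCm38, without versions or settings. The authors deposited estimated counts per transcript, which per the file headers are Salmon output, where a read that fits several transcripts is split between them. The same deposited tables give TPM and effective lengths for 140658 transcripts. Of these, 140137 matched GENCODE M21 (GRCm38), and the other 521, with 0.124 to 0.394% of counts, were left out. Counts were summed per gene and rounded. TPM were summed per gene and used for levels only.

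The test of cold against ctrl (two-sided, no covariate) used edgeR 4.0.16 in R 4.3.3, with filterByExpr (minimum count 10, minimum total 15), TMM, robust glmQLFit and glmQLFTest, and Benjamini-Hochberg adjustment over 17852 genes at a threshold of 0.05. CPM use TMM-scaled library sizes. Standard errors and 95% intervals come from the quasi-likelihood F statistic. An exact permutation test of 3 against 3 cannot go below p = 0.10, and class sums were not tested. Alternatives were RLE size factors, no filter, a transcript length offset, DESeq2 1.42.0, leaving out libraries, summing Hspa1a with Hspa1b, and adding pseudogene copies.

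All pairs of libraries within a group differed beyond sampling noise. In data simulated from cold against ctrl (17526 genes kept), the test found 36% of 50 genes set to 1.5-fold, 74% of those set to 2-fold, 92% for 4-fold and 84% for 0.25-fold, and 8.92% of its calls were false. Members, lists and tests were chosen with earlier results of these data known. The rule for named genes took the markers, 6 heat-inducible members, per class the 3 members with the highest TPM and the 2 with the smallest p, the members with the largest and the lowest value, those under the filter, and per partner list the 2 genes with the smallest p. Other members, the ER stress element and the orders of libraries were added after values were seen. One partner list is not reported here.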

Additional observations from a re-analysis of the deposited data

How the results depend on the processing

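No paired analysis was possible because the mouse numbers differ between the groups. The number of members called was 0 by edgeR with the filter and all 6 libraries, and stayed 0 with RLE size factors, the length offset, the summed pair and the pseudogene copies. It was 1 with no low-count filter (924 genes called in all), 4 with DESeq2 (1340 genes), 3 with ctrl 5 and cold 7 both left out (1230 genes), and 0 to 2 with any 1 library left out, where 0 to 1090 genes were called, against 516 by edgeR with the filter and all 6 libraries. Of 32 named members 26 kept their direction under every alternative run. The other 6 changed sign near zero, and the cause was not tested. With 1 library left out, the log2 fold change ran from -0.05941 to 0.002631 in Dnajc7, from -0.006866 to 0.09796 in Hsp90ab1, from -0.1605 to 0.02115 in Hspa1a, from -0.2787 to 0.01903 in Hspa1b and from -0.0178 to 0.09275 in Hspa9. With ctrl 5 and cold 7 both left out, it was -0.002166 in Hsp90ab1, -0.0293 in Hsp90b1 and -0.01138 in Hspa9. Genes simulated at 1.5-fold were found in 36% of cases. They were drawn from the genes tested at large, so this share is not one for the members. Most members differed by less than 1.5-fold.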
